A study of Homo sapiens with 16 samples.

Results

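The HES and HEY genes encode basic helix-loop-helix repressors that carry the Notch signal into transcription. The 9 genes of the group, HES1, HES2, HES4, HES5, HES6, HES7, HEY1, HEY2 and HEYL, were chosen by name among the 57736 Ensembl genes of the table, and all 9 were among the 24249 that passed the filter on low counts. Libraries came from H9, an established human embryonic stem cell line, so each group describes 1 cell line. Cells were collected undifferentiated (D0) and on days 12, 30 and 70 (D12, D30, D70) of cortical differentiation, which began with the SMAD pathway inhibitors LDN193189 and SB431542 for 12 days and went on in N2/B27 medium. At every stage, D0 included, 2 libraries were from cells kept in 40 µM Thiamet-G (TMG) and 2 from cells given its solvent DMSO. TMG inhibits O-GlcNAcase, the enzyme that removes O-GlcNAc from proteins, so the comparison asks how a sustained rise in this modification alters expression. The study calls the libraries of a group biological replicates of this 1 line, and p-values measure the spread between them. Groups follow the titles, with which the sample descriptions and the table's column names go together. A separate treatment tag reads control for replicate 1 and TMG for replicate 2 in both arms, against the title in 8 of 16 libraries, so under the tag a difference between replicates would be one of treatment.

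When a ligand on one cell (the DLL and JAG families) binds a NOTCH receptor on its neighbour, the receptor is cut and its intracellular domain joins the DNA-binding protein RBPJ to switch on HES and HEY genes. HES1 and HES5 then repress proneural factors such as the neurogenins, which keeps cells as progenitors. HES6 is the exception of the family, since it is known to oppose HES1 and to accompany neuronal commitment. HES7 is best known from the segmentation clock, and HEY2 and HEYL from the developing heart and vessels.

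Total counts per library were between 10334908 and 19836878. The summed level of 5 stem cell markers was 2763 to 3086 CPM (counts scaled to a common library size) at D0 and 1.34 to 2.89 CPM at D70, and 6 neuronal markers summed to 210 to 271 CPM at D0 and 196 to 1131 CPM at D70, where TMG replicate 2 had the lowest value, below the D0 libraries. Of 7 mesenchyme and pericyte markers (collagens, DCN, LUM, PDGFRB and RGS5), all 7 were above 1 CPM in every library of D30 and D70. By them, 3 libraries stood apart. The list summed to 29694 CPM in TMG replicate 2 of D30 against 4552 to 5728 in the other libraries of that stage, and to 45177 and 58967 CPM in DMSO and TMG replicate 2 of D70 against 7675 and 3869.7 in the replicates 1. A level in such bulk RNA does not tell fewer cells of a type from less RNA per cell.

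RBPJ recognises the core TGGGAA. The letters were searched on both strands of the windows from 250 bases before to 50 after the annotated start. The windows were taken from RefSeq on GRCh38.p14 for 8 of the 9 genes. HEY1 was left out of the search, so whether its window holds the core was not tested. The core was found in HES1, HES4, HES5, HEY2 and HEYL, and these letters were not in the windows of HES2, HES6 and HES7. Of 35116 promoter windows of the same length, 24% hold the core and 3.8% hold at least 2 copies. HES1 has 2 copies on its own strand, starting 84 and 70 bases before the start, HES4 has 1 copy at 76 bases, and HES5 has 1 on its strand at 80 bases and 1 on the other at 224 bases. HEY2 has copies 213 and 3 bases before the start and HEYL at 178 and 99 bases. With the longer GTGGGAA, which contains the core and is held by 6.25% of windows, HES1, HES4 and HEYL keep 1 match each and HES5 and HEY2 keep 2. The windows of the genes on which the stage comparisons turn are printed with the core, read on either strand (TGGGAA or TTCCCA), in capitals. HES6 is shown for contrast.
HES1, chr3:194135898-194136197, plus strand: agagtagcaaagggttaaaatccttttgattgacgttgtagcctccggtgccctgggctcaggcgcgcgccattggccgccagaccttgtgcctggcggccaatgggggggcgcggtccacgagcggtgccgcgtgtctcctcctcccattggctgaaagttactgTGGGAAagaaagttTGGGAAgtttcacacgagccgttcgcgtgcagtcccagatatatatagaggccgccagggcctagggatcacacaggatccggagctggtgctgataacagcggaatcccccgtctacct
HES4, chr1:1000048-1000347, minus strand: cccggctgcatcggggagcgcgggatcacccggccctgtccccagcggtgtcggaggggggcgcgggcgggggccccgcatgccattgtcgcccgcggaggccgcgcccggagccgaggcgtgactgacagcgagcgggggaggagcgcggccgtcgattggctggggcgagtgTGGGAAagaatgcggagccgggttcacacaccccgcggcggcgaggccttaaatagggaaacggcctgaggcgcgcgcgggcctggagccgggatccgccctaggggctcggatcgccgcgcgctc
HES5, chr1:2530214-2530513, minus strand: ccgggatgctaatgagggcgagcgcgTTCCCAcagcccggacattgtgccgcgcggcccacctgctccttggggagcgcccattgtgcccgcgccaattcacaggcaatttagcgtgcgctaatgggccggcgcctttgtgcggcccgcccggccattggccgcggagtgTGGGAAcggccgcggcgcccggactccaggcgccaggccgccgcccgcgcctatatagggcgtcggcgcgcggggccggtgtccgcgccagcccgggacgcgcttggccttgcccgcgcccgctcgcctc
HEY2, chr6:125749382-125749681, plus strand: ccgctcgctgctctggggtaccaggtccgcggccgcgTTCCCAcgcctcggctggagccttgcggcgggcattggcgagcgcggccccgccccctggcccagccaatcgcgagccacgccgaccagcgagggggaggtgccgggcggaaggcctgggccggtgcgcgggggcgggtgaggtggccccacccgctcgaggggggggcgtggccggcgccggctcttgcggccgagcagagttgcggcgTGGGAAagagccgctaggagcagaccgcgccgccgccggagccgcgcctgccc
HES6, chr2:238239989-238240288, minus strand: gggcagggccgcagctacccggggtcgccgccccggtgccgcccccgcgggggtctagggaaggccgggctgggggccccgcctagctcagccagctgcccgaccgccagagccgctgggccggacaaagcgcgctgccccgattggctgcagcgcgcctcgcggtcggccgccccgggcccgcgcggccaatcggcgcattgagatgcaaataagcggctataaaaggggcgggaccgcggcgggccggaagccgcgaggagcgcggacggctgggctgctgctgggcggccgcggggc

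**Figure D1:**
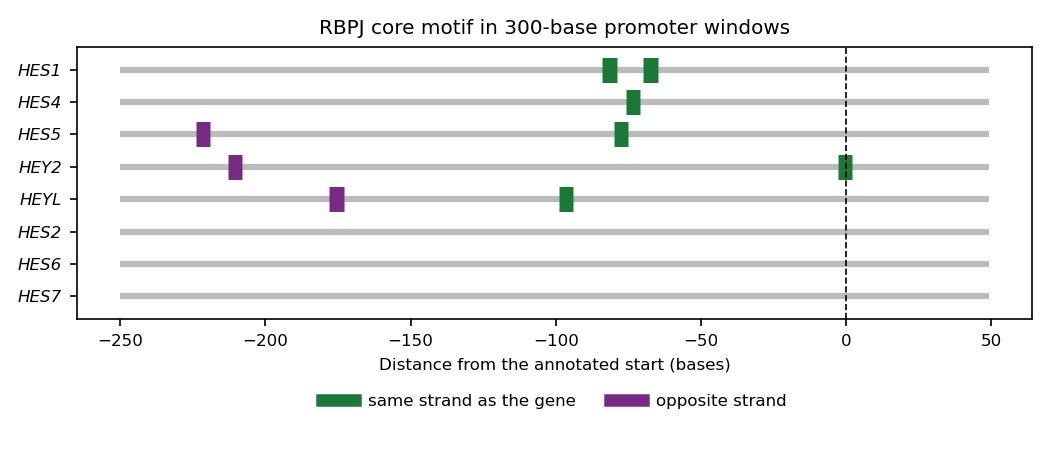
Position of the RBPJ core in the promoter windows of 8 genes. The x axis is the distance in bases from the annotated start, grey bars are the windows, and coloured marks are matches on the gene's strand (green) or the other strand (purple). HES1, HES4, HES5 and HEYL each have a match on their own strand between 70 and 99 bases before the start, while HES2, HES6 and HES7 have none in the window.

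The N-box CACNAG, a sequence that HES proteins are known to bind, gave 4 matches in HES1, 1 in HES2 and 1 in HES7 over both strands, and 38% of windows hold at least 1. The HES5 promoter was also examined by chromatin immunoprecipitation in the study, and its 2 primers match the printed window over their full length. They are shown because they place the assayed fragment on it. Chromatin data are not analysed here.
HES5 forward primer: ctatataggcgcgggcgg
HES5 reverse primer: tcacaggcaatttagcgtgc
Their product is the 130 bases of chr1:2530286-2530415 (GRCh38.p14), which contain the core that starts 80 bases before the start of HES5 and not the one at 224 bases.

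The family's make-up changed from stage to stage. Levels were compared between genes as CPM per kb of the annotated canonical transcript, which corrects for length, and the share of a gene is its part of the 9 genes' summed level. Among the 9 genes HES6 was the highest at D0, with 47% to 54.5% of the sum in the 4 libraries, and HES1 was second in each. HES3, a HES gene that is not among the 9, had 23.4 ± 2.31 CPM per kb in DMSO and 23.7 ± 2.74 in TMG at D0 (SD, n = 2), and the shares leave it out. HES1 had 18.8 and 46.8 CPM per kb in DMSO and 20.5 and 21.9 in TMG, so with HES3 counted HES1 would not be second in every library. At D12 HES4 was the highest in all 4 libraries, with 33.8% to 56.4%. At D30 HES1 led in 3 libraries with 43.6% to 50.4%, and in DMSO replicate 1 HES4, at 38.5%, stood just above HES1 at 36.9%. D70 had no common leader: HES1 led in DMSO replicate 1 (46.4%) and TMG replicate 2 (29.7%), HES5 in DMSO replicate 2 (32.7%) and HES4 in TMG replicate 1 (42.4%). HES1, HES4, HES5 and HES6 together made up 79.3% to 97.5% of the sum in the 16 libraries.

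**Figure D2:**
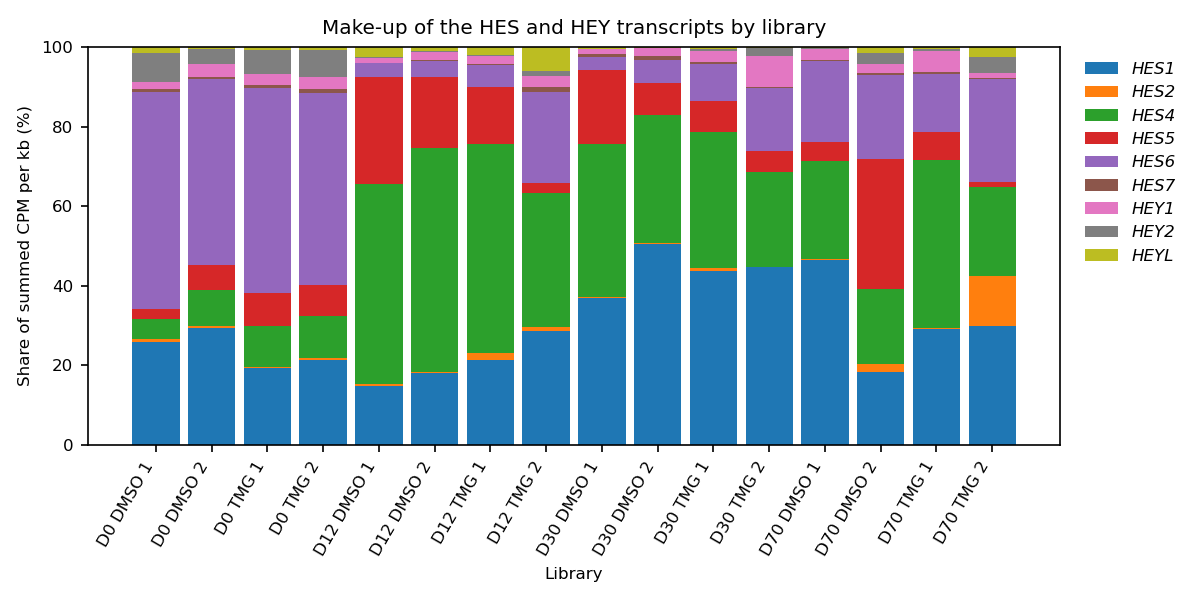
Share of each HES and HEY gene in the 9 genes' summed CPM per kb, in percent, for each of the 16 libraries (DMSO and TMG, replicates 1 and 2, by stage). HES6 holds 47% to 54.5% at D0, HES4 is the largest part of all 4 libraries of D12, and HES2 reaches a visible share in TMG replicate 2 of D70.

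HES1 (ENSG00000114315, chr3:193853937-193856521, plus strand; GRCh37 here and for the genes that follow, with counts summed over each gene's exons) was well above the counting floor at every stage. In DMSO it had 29.7 and 73.7 CPM at D0, 66.4 and 42.2 at D12, 72.6 and 88 at D30 and 75.7 and 39.8 at D70. In TMG it had 32.2 and 34.5 CPM at D0, 56.4 and 30.8 at D12, 58.9 and 76.7 at D30 and 55.9 and 47.3 at D70. The 2 DMSO libraries of D0 lay farther apart than those of any other stage, and the ranges of D0, D12 and D70 overlap. The largest change between DMSO stages was a log2 fold change of 0.64 (standard error (SE) 0.45, adjusted p = 0.304) from D0 to D30, which did not pass the threshold. The same step in TMG gave 1.02 (SE 0.45, adjusted p = 0.115).

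HES4 and HES5, the members that human neural progenitors are known to use beside HES1, lie on chromosome 1 (HES4, ENSG00000188290, at chr1:934342-935552 and HES5, ENSG00000197921, at chr1:2460184-2461702, both minus strand). HES4 in DMSO had 3.21 and 12.8 CPM at D0, 127 and 74.7 at D12, 42.6 and 31.6 at D30 and 22.7 and 23.1 at D70. In TMG it had 9.67 and 9.69, 78.3 and 20.4, 25.9 and 23, and 45.7 and 20.2 CPM at the same stages. Every library of D12, D30 and D70 was above every library of D0, and in DMSO D12 lay above D30, which lay above D70. HES4 rose from D0 to D12 in DMSO with a log2 fold change of 3.66 (SE 0.74, adjusted p = 0.0092) and in TMG with 2.35 (SE 0.70, adjusted p = 0.043), by edgeR's quasi-likelihood test with Benjamini-Hochberg adjustment over all genes. Leaving out a library leaves an arm of 1, assumed to vary like the other groups, and then 3.21% to 6.96% of all genes were called for this step. The DMSO call was lost without DMSO replicate 1 of D0 (3.01, adjusted p = 0.0595) or of D12 (3.26, adjusted p = 0.0535). The TMG call was lost without either D0 library (2.35 both times, adjusted p = 0.207 and 0.205) or without replicate 1 of D12 (1.07, adjusted p = 0.408), and also with a replicate block (2.24, adjusted p = 0.0519) or without the filter on low counts (2.35, adjusted p = 0.133). At D30 HES4 in DMSO was still above D0 (2.21, adjusted p = 0.0349), a call that held only without DMSO replicate 2 of D0 (3.52, adjusted p = 0.0204) and was lost without any 1 of the other 3 libraries (1.59 to 2.41, adjusted p = 0.0725 to 0.167).

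HES5 was more uneven. In DMSO it had 2.47 and 13.2 CPM at D0, 102 and 35 at D12, 30.9 and 11.9 at D30 and 6.56 and 60 at D70. In TMG the values were 11.8 and 10.7, 32 and 2.24, 8.84 and 7.57, and 11.1 and 1.48 CPM. Both DMSO libraries of D12 exceeded both of D0, while in TMG replicate 2 of D12 was below both D0 libraries. The log2 fold change from D0 to D12 was 3.13 in DMSO (SE 1.39, adjusted p = 0.149) and 0.61 in TMG (SE 1.30, adjusted p = 0.795), and neither passed by edgeR. By DESeq2 the DMSO rise passed (3.11, adjusted p = 0.0411).

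HES6 (ENSG00000144485, chr2:239146908-239149303, minus strand) ran the other way. It had 54.2 and 103 CPM in DMSO and 75.4 and 68.2 in TMG at D0, then 13 and 8.32 in DMSO and 12.4 and 21.4 in TMG at D12. At D30 it had 5.64 and 8.98 CPM in DMSO and 10.9 and 23.7 in TMG, and at D70 28.7 and 40.1 in DMSO and 24.7 and 35.8 in TMG. No library of a later stage reached the D0 levels, and all 4 libraries of D70 were above all 4 of D12 and D30. HES6 fell from D0 to D12 in DMSO (log2 fold change -2.87, SE 0.48, adjusted p = 0.00403) and in TMG (-2.09, SE 0.46, adjusted p = 0.0134). From D0 to D30 it fell in DMSO (-3.41, SE 0.49, adjusted p = 0.000809) and in TMG (-2.05, SE 0.47, adjusted p = 0.00905). Both DMSO calls held without any 1 library. The TMG fall to D12 lost its call without either D0 library (-2.01 and -2.16, adjusted p = 0.0804 and 0.0609) or replicate 1 of D12 (-1.75, adjusted p = 0.121). The TMG fall to D30 lost it without D0 replicate 1 (-1.97, adjusted p = 0.0521) or D30 replicate 1 (-1.60, adjusted p = 0.0677).

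From D12 to D70 HES6 in DMSO rose again, by 1.69 (SE 0.46, adjusted p = 0.041), and was the single member called in that comparison. This call was lost without any 1 of its 4 libraries (1.40 to 2.04, adjusted p = 0.0671 to 0.213). From D30 to D70 the difference was 2.22 (SE 0.47, adjusted p = 0.0671), which passed by DESeq2 (adjusted p = 0.000595). In TMG the difference between D12 and D70 was 0.84 (SE 0.45, adjusted p = 0.291).

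HEY2 (ENSG00000135547, chr6:126068810-126082415, plus strand) and HEYL (ENSG00000163909, chr1:40089107-40105315, minus strand) act beside the HES repressors as targets of Notch. The 2 genes had opposite profiles over the first 2 stages. HEY2 had 14.1 and 15.6 CPM in DMSO and 17.2 and 17.9 in TMG at D0, and 1.2 to 2.24 CPM in the 4 libraries of D12. At D30 it had 0.376 and 0.251 CPM in DMSO, which are 4 and 5 counts, and 1.17 and 5.96 in TMG. At D70 the replicates 1 had 0.643 and 1.11 CPM and the replicates 2 had 9.98 and 10.5. D0 was the highest stage in every library, and at D70 the replicate number and not the treatment separated the high from the low libraries. HEY2 fell from D0 to D30 in DMSO (log2 fold change -5.58, SE 1.42, adjusted p = 0.014), a call lost without either D30 library (-5.84 and -5.27, adjusted p = 0.0841 and 0.1). The difference from D0 to D12 was not called, with -3.24 in DMSO (SE 1.2, adjusted p = 0.0891) and -3.21 in TMG (SE 1.19, adjusted p = 0.0915). It passed in both arms by DESeq2 (adjusted p = 0.0181 and 0.0188) and in a fit without the 4 uneven libraries of D70 (0.00285 and 0.00277).

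HEYL had its highest group means at D12. It had 2.87 to 4.33 CPM in the 4 libraries of D0, 28.9 and 6.35 in DMSO and 13.7 and 16.9 in TMG at D12, and 0.903 to 1.97 in the 4 libraries of D30. All libraries of D12 were above all of D0, and all of D30 were below both. At D70 the replicates 1 had 0.964 and 2.69 CPM and the replicates 2 had 9.09 and 10.7, above DMSO replicate 2 of D12. None of the steps passed by edgeR on all libraries, with 2.29 from D0 to D12 in DMSO (SE 0.98, adjusted p = 0.135) and -3.64 from D12 to D30 (SE 1.06, adjusted p = 0.0851). Without DMSO replicate 1 of D12 these values were 0.84 and -2.15. By DESeq2 the D12 to D30 step passed in DMSO (-3.60, adjusted p = 0.0035) and in TMG (-3.25, adjusted p = 0.0179). Without the D70 libraries both passed (adjusted p = 0.0182 and 0.00808), as did the same steps in TMG (0.0197 and 0.0179).

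HEY1 (ENSG00000164683) stayed between 2.77 and 18.2 CPM, and over both arms together the ranges of all stages overlapped. In DMSO alone D30 (3.67 and 4.62 CPM) lay below D12 (7.57 and 5.91) and D70 (6.49 and 7), with no call. Its lowest D0 value was 2.97 CPM and its highest 11.9, and D12 libraries lay between 4.29 and 7.57. HES2 (ENSG00000069812, chr1:6472478-6484730, minus strand) had 1.30 to 2.73 CPM at D0, 2.68 to 11.5 at D12 and 0.284 to 3.01 at D30. At D70 it had 0.836 CPM in DMSO replicate 1 and 0.474 in TMG replicate 1, against 12.2 and 54.3 in the replicates 2. The replicates were farther apart than the treatments. HES7 (ENSG00000179111, chr17:8023910-8027424, minus strand) was near the detection limit throughout, between 0.462 and 1.81 CPM, or 5 to 36 counts, where 3 counts correspond to 0.147 to 0.291 CPM across the libraries.

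**Figure D3:**
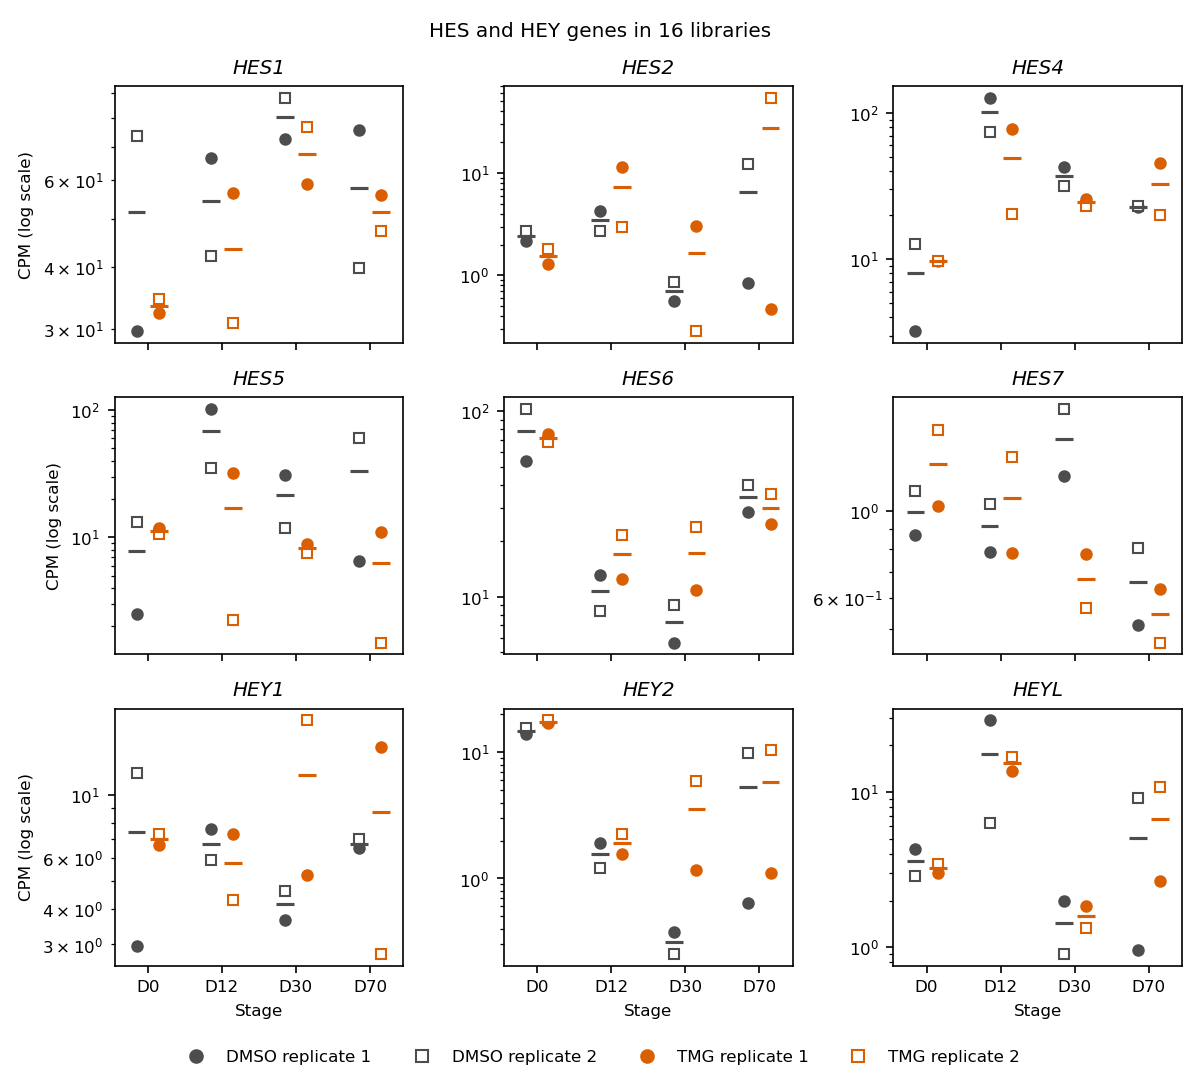
CPM of the 9 genes in the 16 libraries, on log axes that differ between panels. Grey is DMSO and orange is TMG, filled circles are replicate 1, open squares replicate 2 and bars the mean of 2. HES4 and HEYL have their highest group means at D12, with single libraries below those of later stages, HES6 and HEY2 are highest at D0, and HES2, HEY2 and HEYL split by replicate number at D70.

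In counts, 2 of 9 members were called from D0 to D12 in DMSO, HES4 and HES6, where 16.7% of all genes were. From D0 to D30 these were joined by HEY2, 3 of 9 beside 30.6%. From D12 to D30, 0 members were called in DMSO beside 3.6% of genes, 1 (HEYL) had an unadjusted p under 0.05 beside 20.4% of genes, and their median log2 fold change was -1.45 against -0.04 over all genes. From D12 to D70 the 1 call stood beside 11.1%, from D30 to D70 there were 0 beside 0.384%, with 3 members at an unadjusted p under 0.05 beside 18.4%, and from D0 to D70 there were 0 beside 29.8%. In TMG, HES4 and HES6 were called from D0 to D12 beside 16.4%, HES6 from D0 to D30 beside 27.7%, and 0 members from D12 to D30 (0.511%), D30 to D70 (0.00825%), D12 to D70 (5.15%) or D0 to D70 (29%). In these 4 comparisons 1, 1, 0 and 4 members had an unadjusted p under 0.05, beside 15%, 11%, 23.5% and 41.7% of genes. From D0 to D70 in DMSO 2 did, beside 42.5%. DESeq2 called 4 members from D0 to D12 in DMSO (21.9% of the genes it tested), 1 from D12 to D30 (11.9%) and 2 from D30 to D70 (8.35%). In TMG it called 3 (22.5%), 1 (6.14%) and 0 (1.71%) for the same steps.

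HES2, HEY2 and HEYL were high in both replicate 2 libraries of D70, a split that follows the treatment tag and not the titles. These libraries are also those with 45177 and 58967 CPM of mesenchyme and pericyte markers. In TMG replicate 2 of D30, with 29694 CPM of the same markers, HEY2 had 5.96 CPM, the highest value of the stage, while HES2 had 0.284 and HEYL 1.33. At D0, where the markers summed to 168 to 188 CPM, HEY2 was at its highest. In the later stages its 3 highest values (5.96, 9.98 and 10.5 CPM) were in the 3 libraries richest in the markers. Of the endothelial markers, 3 of 4 were measured (CDH5, TEK and KDR). Their sum was 133 to 203 CPM at D0 and 14.8 to 33 at D12. At D30 it was 47.7 CPM in TMG replicate 2, 29.9 in TMG replicate 1 and 17.2 to 21.4 in DMSO. At D70 it was 64.1 CPM in DMSO replicate 2 and 2.77 in TMG replicate 2, against 10.4 and 34.4 in the replicates 1. The part of either cell type in these levels was not tested.

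**Figure D4:**
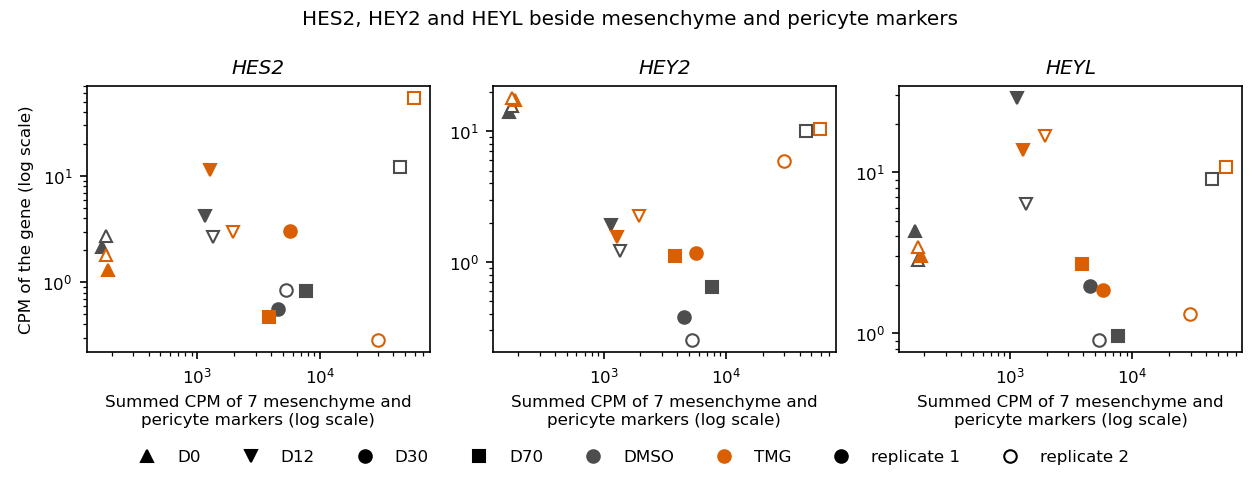
CPM of HES2, HEY2 and HEYL against the summed CPM of 7 mesenchyme and pericyte markers, both on log axes, with 1 point for each of the 16 libraries. Shapes give the stage, colours the treatment and filled or open symbols the replicate. The open squares at the right are the replicate 2 libraries of D70, high for all 3 genes, and the open circle near 29694 CPM is TMG replicate 2 of D30, where HEY2 is at 5.96 CPM and HES2 at 0.284.

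TMG against DMSO gave 0 calls among the 9 members at each stage, where the background was 0% of all genes, and DESeq2 also gave 0 members at each stage, beside 0.0116% of the genes it tested at D0, 0.0514% at D12, 3% at D30 and 0.218% at D70. At an unadjusted p under 0.05 there were 0 members at D0 (1.26% of all genes), 0 at D12 (2.48%), 3 at D30 (12%) and 0 at D70 (5.49%). HES5, the classical Notch target of neural progenitors, had the lower mean in TMG at D12, D30 and D70. At D12 its 102 and 35 CPM in DMSO stood against 32 and 2.24 in TMG, at D30 30.9 and 11.9 against 8.84 and 7.57, and at D70 6.56 and 60 against 11.1 and 1.48. The groups did not overlap at D12 and D30 and overlapped at D70. The log2 fold changes were -2.00 at D12 (SE 1.32, 95% interval -4.92 to 0.93, adjusted p = 1), -1.38 at D30 (SE 1.33, interval -4.32 to 1.56, adjusted p = 0.741) and -2.39 at D70 (SE 1.37, interval -5.41 to 0.63, adjusted p = 0.909). By DESeq2 the D70 difference had an unadjusted p under 0.05, as did 3.46% of genes. With 1 library left out, the D12 value ran from -1.04 (without DMSO replicate 1) to -4.93 (without TMG replicate 1), the D30 value from -0.55 (without DMSO replicate 1) to -1.91 (without DMSO replicate 2) and the D70 value from -0.06 (without DMSO replicate 2) to -4.48 (without TMG replicate 1). Of the 5 neural progenitor markers SOX1, SOX2, PAX6, NES and FABP7, 4 were tested, and all 4 had the lower mean in TMG at these 3 stages. The sum of the list was 1159 and 1018 CPM in DMSO and 1009 and 657 in TMG at D12, 827 and 764 against 724 and 544 at D30, and 615 and 475 against 810 and 98.1 at D70. The lowest sums of D12, D30 and D70 were in the libraries with the lowest HES5. The highest sums were in the libraries with the highest HES5 at D12 and D30 but not at D70. There DMSO replicate 2 had the highest HES5, 60 CPM, with a sum of 475. TMG replicate 1 had the highest sum, 810, with HES5 at 11.1 CPM. The part of these markers in the HES5 values was not tested. At D0 the log2 fold change of HES5 was 0.52 (SE 1.31).

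HES4 also had the lower mean in TMG at D12 (-1.03, SE 0.66) and D30 (-0.60, SE 0.67), with libraries that overlapped at D12 and not at D30. At D0 and D70 its values were positive (0.28, SE 0.68, and 0.52, SE 0.67), with libraries that overlapped. Its D12 value went from -0.37 without TMG replicate 2 to -2.30 without TMG replicate 1. HES1 had log2 fold changes of -0.63 at D0, -0.32 at D12, -0.24 at D30 and -0.16 at D70 (SE 0.45 each). The 95% interval was -1.62 to 0.36 at D0 and -1.23 to 0.74 at D30, and the D0 value ran from -1.11 without DMSO replicate 1 to 0.18 without DMSO replicate 2.

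D30 held the 3 members with an unadjusted p under 0.05. HES6 had 5.64 and 8.98 CPM in DMSO against 10.9 and 23.7 in TMG, HEY2 0.376 and 0.251 against 1.17 and 5.96, and HES7 1.22 and 1.81 against 0.777 and 0.568. Both TMG libraries lay above both DMSO libraries for HES6 and HEY2 and below them for HES7. The log2 fold changes were 1.23 for HES6 (SE 0.46, 95% interval 0.21 to 2.25, adjusted p = 0.337), 3.52 for HEY2 (SE 1.37, interval 0.51 to 6.54, adjusted p = 0.349) and -1.18 for HES7 (SE 0.48, interval -2.24 to -0.11, adjusted p = 0.373). HEY1, with 3.67 and 4.62 against 5.25 and 18.2 CPM, had 1.49 (SE 0.81, adjusted p = 0.496). TMG replicate 2 had the higher value of HES6, HEY2 and HEY1, and without it their log2 fold changes were 0.56, 1.91 and 0.34, none with an unadjusted p under 0.05. That library also held the 29694 CPM of mesenchyme and pericyte markers. Other markers stood higher in TMG at D30 as well. The 4 cycling markers summed to 237 and 217 CPM in DMSO and 289 and 529 in TMG, and the 6 neuronal markers to 478 and 615 against 750 and 957. Each of these 10 genes had the higher mean in TMG, without overlap for 4 and 5 of them. Of 5 stem cell markers 4 had the higher mean, 3 without overlap (median log2 fold change 2.74), while the summed level was 50.4 and 28.6 CPM against 65.4 and 25.3. The part of these markers in the HES6, HEY2 and HEY1 values was not tested. HES7 rested on 6 to 36 counts a library.

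Over all members, the libraries of the 2 arms did not overlap for 1 gene higher in TMG at D0, HEY2, and 1 lower, HES2 (19.7% and 16.9% of all genes, 36.6% together). At D12 there were 0 higher and 1 lower, HES5 (17.8% and 16.5%, together 34.3%), and at D70 0 of each (9.77% and 12.4%, together 22.1%). D30 had 3 of each (23.1% and 21%, together 44.1%). The 6 of D30 were HES6, HEY1 and HEY2 higher and HES4, HES5 and HES7 lower. At D70 HES2 had a difference of 2.07 (SE 1.57), which became -3.75 without TMG replicate 2 and 5.05 without DMSO replicate 2. The TMG effect was also compared between every pair of stages, and 0 members differed in any of the 6 pairs by edgeR, where 0% of all genes did. The 1 member with an unadjusted p under 0.05 in any pair was HES7 between D0 and D30 (-1.59, adjusted p = 0.976), and 0 members passed by DESeq2.

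**Figure D5:**
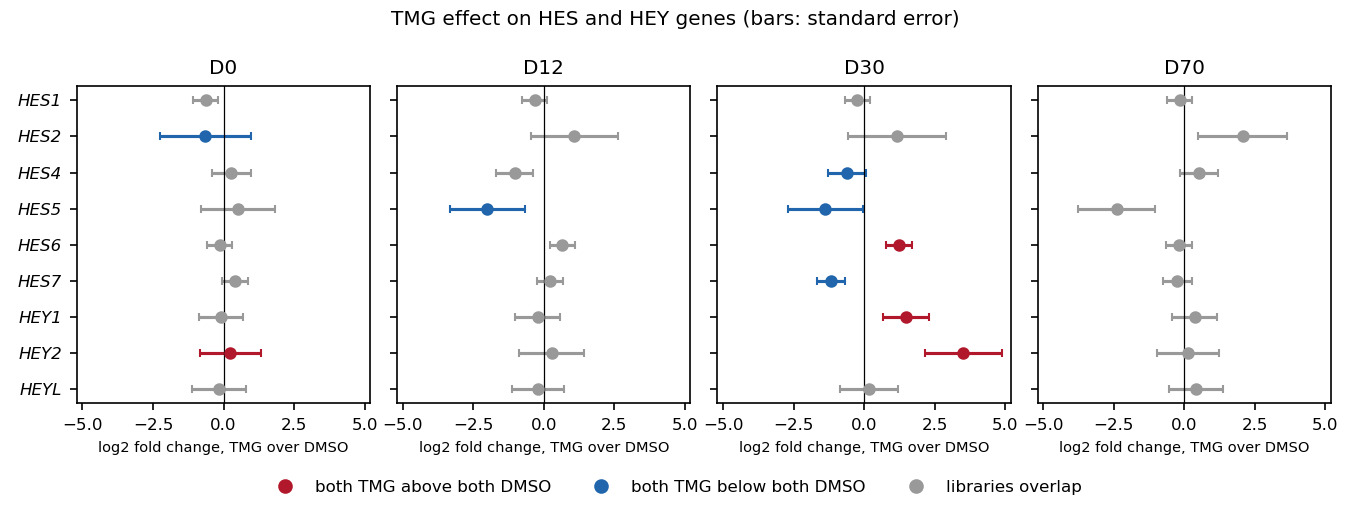
log2 fold change of TMG over DMSO for the 9 genes at each stage, with the standard error as bars. Red and blue mark genes whose 2 TMG libraries lie above or below both DMSO libraries, and grey those that overlap. No gene passed the 5% false discovery rate at any stage. At D30 HES6, HEY1 and HEY2 are red and HES4, HES5 and HES7 blue.

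Of the other Notch pathway genes, 35 were listed (receptors and ligands, processing enzymes, the nuclear complex with its corepressors, and NRARP) and all were tested. In DMSO, 7 rose and 0 fell from D0 to D12, beside 6.97% and 9.71% of all genes, with a median log2 fold change of 0.18 against 0.00 over all genes. The receptor NOTCH2 went from 263 ± 23.8 to 1279 ± 321 CPM (SD, n = 2; log2 fold change 2.28, adjusted p = 0.000694) and the ligand JAG1 from 113 ± 3.32 to 365 ± 84.1 CPM (1.69, adjusted p = 0.0269 by edgeR). NEURL1, a ubiquitin ligase for ligands, rose by 2.78 (adjusted p = 0.0108) and TLE4, a corepressor that HES proteins recruit, by 1.68 (adjusted p = 0.024). The count of 7 of 35 was 1 without DMSO replicate 1 of D0 or of D12 (4.95% and 3.96% of all genes), 3 without either replicate 2 (6.96% and 4.83%), and 11 without the D70 libraries (31.4% of the list, 30.3% of all genes), so it moved with all genes. From D12 to D30, 1 rose, the ligase MIB1 (0.87, adjusted p = 0.0411), a step in which 0% to 0.775% of all genes, and 0 of the list, were called without any 1 library. From D30 to D70, 0 were called by edgeR (0.384% of all genes), 11 had an unadjusted p under 0.05 (31.4% of the list, 18.4% of all genes) and DESeq2 called 2 (8.35% of the genes it tested).

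With TMG, 0 of the 35 were called at any stage. At an unadjusted p under 0.05, 0 were at D0, 2 at D12, 3 at D30 and 5 at D70, which are 0%, 5.71%, 8.57% and 14.3% of the list beside 1.26%, 2.48%, 12% and 5.49% of all genes. Among the 9 receptors and ligands the mean was lower in TMG for 8 at D12 and 8 at D30, with median log2 fold changes of -0.44 and -0.45, and for 3 at D70 with 0.36. The medians of all genes were 0.00, 0.01 and -0.01. At D12 and D30 the 4 neural progenitor markers tested also had lower means in TMG (medians -0.38 and -0.36) and the 6 neuronal markers higher ones (0.37 and 1.14), and their part in these medians was not tested. JAG1 had 365 ± 84.1 CPM in DMSO and 185 ± 59.1 in TMG at D12 (SD, n = 2), and DLL1, a ligand of neural progenitors, 110 ± 33.3 and 35.4 ± 21.7 (SD, n = 2). Their log2 fold changes were -0.98 (SE 0.43) and -1.63 (SE 0.78), each with an adjusted p of 1 by edgeR. MAML2, a coactivator of the receptor complex, had the lowest p at D12 (0.80, SE 0.22, adjusted p = 1). At D30 DLL3, a ligand that acts within the cell, had 3.12 ± 1.76 CPM in DMSO and 13.5 ± 5.99 in TMG (SD, n = 2; log2 fold change 2.08, adjusted p = 0.41 by edgeR). NRARP, a Notch target outside the family, had -1.06 at D12 (SE 0.67) and -0.47 at D30 (SE 0.67), with -0.65 at D0 (SE 0.66) and 1.17 at D70 (SE 0.68). At D70 JAG1 had 62.5 ± 41.9 CPM in DMSO and 172 ± 12.8 in TMG (SD, n = 2; log2 fold change 1.46, adjusted p = 0.858 by edgeR).

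The neurogenins NEUROG1 and NEUROG2, proneural genes that HES proteins are known to repress, were not called for TMG at any stage. NEUROG2 had 0.439 ± 0.089 CPM in DMSO and 5.89 ± 6.4 in TMG at D30 (SD, n = 2), with a log2 fold change of 3.70 (SE 1.56, adjusted p = 0.385 by edgeR), and NEUROG1 had 3.02 (SE 1.71, adjusted p = 0.517). Of 4 related repressors beside the 9 members, 3 were tested. HES3, which is known from early neural precursors and stem cells, had 16.6 ± 1.64 CPM in DMSO at D0 and 0.303 ± 0.197 at D12 (SD, n = 2), a fall of 5.72 on the log2 scale (adjusted p = 0.00388 by edgeR), and the clock repressor BHLHE41 fell by 3.32 (adjusted p = 0.00526). Of the 4 ID genes, which bind and block such factors, 0 were called in this step.

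Across the 16 libraries, HES6 and HEY2 had the most similar profiles of any 2 members (Pearson r 0.87 of log2 CPM), followed by HES2 with HEYL (0.70) and HES4 with HES5 (0.65), and HES4 ran opposite to HES6 (-0.74). All genes share the same libraries, so these values describe differences between stages and between replicates alike, as with the D70 replicates of HES2 and HEYL. Among the 16126 to 16127 other genes with a mean of at least 1 log2 CPM, those most like each member were sought in the same way. HES4 was most like BCL6 (0.950), AJUBA (0.934) and AMOTL2 (0.927). HES6 was most like DIS3L (0.964), NME1 (0.957) and ATG10 (0.938), and HEY2 most like EIF4EBP1 (0.967), TANGO6 (0.949) and TBC1D4 (0.948). HES2 was nearest to FAM83B (0.944), HES1 to JUND (0.916), HEYL to PCDHGA12 (0.894), HES7 to PRPF4 (0.861) and HEY1 to DIO3 (0.802). HES5 had the weakest match, an unnamed gene (ENSG00000272016, 0.784). With Spearman's rho the 27 values found remained within the 95% interval of r. That is a weak check, since the r were picked as the highest and the interval from 16 libraries is wide. HEY1 with ZNF821 stayed inside it although its value went from 0.796 to 0.497.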

How the data were processed

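RNA was sequenced in 16 H9 libraries, 2 for each of 4 stages and 2 treatments. The authors depleted ribosomal RNA, aligned reads with bowtie2 to hg19 and deposited estimated counts from RSEM v1.2.12 for Ensembl GRCh37.p13 genes, as whole numbers without normalization. Whether counting used strand is not given in the sources used here. Libraries were grouped by title. The treatment tag, which differs in 8 of 16, was not used. No exons of other genes overlapped those of the 9 members.

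edgeR 4.0.16 (R 4.3.3; robust quasi-likelihood F-test, TMM, filterByExpr at 10 and 15 counts) was fitted with 8 group means over 16 libraries, leaving 8 residual degrees of freedom, with Benjamini-Hochberg adjustment over 24249 genes at 5%. CPM use TMM library sizes, and log2 CPM a prior count of 2. Canonical transcript lengths came from GENCODE on GRCh37. Counting floors (3 counts) cover counting error only. The chi-square per degree of freedom between the replicates of a group, which is 1 for counting error alone, was 25.5 to 159. Alternatives were DESeq2 1.42.0, RLE, no filter, a replicate block, single-stage fits and each library left out. Chosen after seeing the data were a fit without D70 and a block within each stage.

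All 9 members are named, with at most the 2 lowest-p genes of each other list and the 3 most similar genes per member. The members and lists were chosen with earlier results of these data known. Stage comparisons share libraries.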

Additional observations from a re-analysis of the deposited data

How the results depend on the processing

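TMG calls among the members were 0 under every alternative and with any 1 library left out, as was the count of members whose effect differed between stages in the fits that span stages (single-stage fits and the block within stage give none). Members at an unadjusted p under 0.05 were 1 at D70 by DESeq2 (HES5, beside 3.46% of genes) and 1 at D12 with a replicate block within stage (HES4). The share of all genes at this threshold in the block fit at D12 is not given here. That 1 is therefore not read as a result about the members. With a library left out these counts moved at every stage. Such fits leave an arm of 1 library, so the moves are not read as results about the members. The cause was not tested for these or any other change given here, beyond the fewer libraries in the fit. Other pathway genes called for TMG at D70 were 0, except without TMG replicate 1 of D70. That fit has 1 library in the arm, and calls among all genes rose in it as well.

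Members called from D0 to D12 in DMSO were 2, and 4 by DESeq2 and without D70, where 21.9% and 30.3% of all genes were called in place of 16.7% (1 to 2 with a library left out, beside 3.96% to 6.96%). In TMG they were 2, and 1 without the filter, 1 with the replicate block and 4 without D70, where 29.6% of all genes were called (0 to 2 with a library left out, beside 3.21% to 6.36%). By DESeq2 the TMG count for that step was 3 (22.5% of the genes it tested). Without the filter 7.23% of all genes were called in that step in TMG. With the replicate block 17.4% were, and 0.759% from D30 to D70 in DMSO. From D12 to D30 members called were 0 in both arms, and 1 by DESeq2 in each (11.9% of genes in DMSO, 6.14% in TMG). Without D70 they were 1 in each arm, where 13.7% of all genes were called in DMSO and 8.24% in TMG. From D30 to D70 in DMSO they were 0, 2 by DESeq2 and 1 with the replicate block (HES6, 2.24, adjusted p = 0.037), and in TMG 0 to 1 with a library left out, where HES2 passed without TMG replicate 1 of D70 (5.03, adjusted p = 0.0483), a fit with 1 library in that arm that called 6.29% of all genes in place of 0.00825%. Of the 35 pathway genes, 7 were called from D0 to D12 in DMSO beside 16.7% of all genes, and 11 without D70 beside 30.3%. From D12 to D30 they were 1 beside 3.6% of all genes, and 7 by DESeq2 beside 11.9%. For that step they were 3 with the replicate block beside 4.38%, and 11 without D70 beside 13.7%. From D30 to D70 they were 0 beside 0.384%, and 2 by DESeq2 beside 8.35%. Counts with a library left out are given above.

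The sources do not say that a replicate number marks a shared culture or day, and the numbers were not taken to pair the libraries. The difference of replicate 2 from replicate 1 in log2 CPM was correlated between arms over the genes tested. This r was 0.0453 at D0, 0.367 at D12, 0.223 at D30 and 0.607 at D70. A stage has 2 same-numbered pairs, and each arm gives 1 such difference. The values therefore cannot tell whether same-numbered libraries belong together. A block within stage raised the calls for TMG at D30 from 0 to 233 of all genes, with 0 members among them. With the replicate block, a separate fit from the block within stage, HES4 from D0 to D12 in TMG was 2.24 (adjusted p = 0.0519 by edgeR).

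Signs changed only for differences that were not called. With a block within stage, HEY1 at D0 was 0.19 and HEYL at D12 0.15. With a library left out, the TMG effect at D0 ran from -1.11 to 0.18 for HES1, -0.37 to 1.59 for HES4, -0.21 to 2.18 for HES5, -0.49 to 0.41 for HES6, -0.74 to 1.24 for HEY1 and -0.41 to 0.20 for HEYL. At D12 it ran from -0.82 to 0.051 for HES1, -0.21 to 1.73 for HES2, -0.23 to 0.58 for HES7, -0.65 to 0.10 for HEY1, -0.014 to 0.65 for HEY2 and -0.91 to 1.26 for HEYL, and at D30 from -1.33 to 2.04 for HES2 and -0.31 to 0.80 for HEYL. At D70 it ran from -0.54 to 0.38 for HES1, -3.75 to 5.05 for HES2, -0.19 to 1.00 for HES4, -0.47 to 0.090 for HES6, -0.54 to 0.10 for HES7, -1.29 to 1.13 for HEY1, -2.23 to 3.17 for HEY2 and -0.88 to 2.81 for HEYL. Between D0 and D12 in DMSO the ranges were -0.41 to 0.87 for HES1, -0.33 to 0.10 for HES7 and -0.79 to 1.18 for HEY1, and between D30 and D70 -1.74 to 1.49 for HES5 and -0.57 to 2.69 for HEYL. In TMG they were -0.12 to 0.75 for HES1, -2.33 to 1.51 for HES5, -0.76 to 0.050 for HES7 and -0.71 to 0.056 for HEY1 from D0 to D12, -1.67 to 0.26 for HES4, -1.96 to 1.87 for HES5, -0.63 to 0.49 for HES6, -0.14 to 1.65 for HEY1 and -0.70 to 1.65 for HEY2 from D12 to D30, and -1.77 to 6.54 for HES2, -0.29 to 0.90 for HES4, -2.47 to 0.43 for HES5, -2.08 to 0.74 for HEY1 and -1.68 to 2.29 for HEY2 from D30 to D70.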
